A study of Mus musculus with 24 samples.

Results

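The genes described here are 36 members of the unfolded protein response and of the amino acid response driven by the transcription factor ATF4. They were taken by symbol from a list of named genes, which was drawn up with earlier results of these data known. All 36 were found among the 39253 genes of the deposited count table, and all 36 passed the filter on low counts that kept 15405 genes.

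The libraries come from granulosa cells, the hormone-responsive cells that surround the oocyte in the ovarian follicle. Cells were taken from C57BL/6 mice of 23 days that had received PMSG, a gonadotropin that makes follicles grow, 48 h before the ovaries were removed. Cells from 2 mice were pooled, plated and at once transfected for 3 h, either with a negative control siRNA (siNC) or with an siRNA against mouse Nts (siNTS), the gene of neurotensin. Plain medium or hCG, which acts on the LH receptor and stands in for the ovulatory LH surge, was then added for 4 h or 12 h. There were 6 groups of 4 libraries. At either time these were siNC cells in plain medium, siNC cells under hCG and siNTS cells under hCG. Every group therefore carried a PMSG treatment, a transfection and a period in culture. No group without siRNA and no siNTS group without hCG was analysed here. The 4 libraries of a group are labelled A_1, A_2, B_2 and B_3 and fall on 3 culture dates, of which A_2 and B_2 share 1. The labels do not say whether A_2 and B_2 were separate pools of mice, so p-values measure the spread between libraries within groups. That spread was estimated over all 6 groups in 1 fit.

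The unfolded protein response is set off when unfolded proteins build up in the endoplasmic reticulum (ER). It runs through the sensors PERK, IRE1 and ATF6. ATF6 and the IRE1 target XBP1 raise chaperones and the machinery for ER-associated degradation (ERAD) of misfolded proteins. PERK and the amino acid sensor GCN2 both phosphorylate the translation factor eIF2α, which slows most translation and favours translation of ATF4. ATF4 then raises genes of amino acid synthesis, uptake and one-carbon metabolism, together with feedback genes such as Trib3 and Ppp1r15a. Counts per gene show neither the phosphorylation of eIF2α nor the splicing of Xbp1, so only the level of each transcript was compared.

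Of the 36 members, 31 had a promoter window in the RefSeq table used here (mouse build GRCm38.p6, 250 bases before to 50 bases after the gene start). The promoters of 4 members are shown because they hold the elements that this response is named for and because their transcripts moved in different directions. Capitals mark the motifs found, and the windows are read 5′ to 3′ along the gene. Asns is asparagine synthetase (chr6:7693160-7693459, minus strand), Trib3 a pseudokinase that restrains ATF4 (chr2:152344011-152344310, minus strand), Hspa5 the ER chaperone BiP (chr2:34771840-34772139, plus strand) and Herpud1 an ERAD component of the ER membrane (chr8:94386179-94386478, plus strand).
Asns: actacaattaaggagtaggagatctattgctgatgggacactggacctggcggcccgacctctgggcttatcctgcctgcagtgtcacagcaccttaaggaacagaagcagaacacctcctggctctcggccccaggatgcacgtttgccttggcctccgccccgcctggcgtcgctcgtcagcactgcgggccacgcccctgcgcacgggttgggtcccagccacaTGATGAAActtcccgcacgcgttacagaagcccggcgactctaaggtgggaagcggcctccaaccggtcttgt
Trib3: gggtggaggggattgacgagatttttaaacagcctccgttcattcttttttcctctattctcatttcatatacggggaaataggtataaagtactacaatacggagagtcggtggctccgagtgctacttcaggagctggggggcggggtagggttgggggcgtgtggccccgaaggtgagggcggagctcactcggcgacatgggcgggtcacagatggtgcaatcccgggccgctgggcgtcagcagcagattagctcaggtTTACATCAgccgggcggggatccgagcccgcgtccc
Hspa5: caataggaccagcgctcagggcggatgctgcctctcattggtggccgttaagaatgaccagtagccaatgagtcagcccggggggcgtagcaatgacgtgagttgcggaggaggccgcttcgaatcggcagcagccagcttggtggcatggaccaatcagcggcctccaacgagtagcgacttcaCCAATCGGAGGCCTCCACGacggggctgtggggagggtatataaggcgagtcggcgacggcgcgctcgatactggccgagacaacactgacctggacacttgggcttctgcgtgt
Herpud1: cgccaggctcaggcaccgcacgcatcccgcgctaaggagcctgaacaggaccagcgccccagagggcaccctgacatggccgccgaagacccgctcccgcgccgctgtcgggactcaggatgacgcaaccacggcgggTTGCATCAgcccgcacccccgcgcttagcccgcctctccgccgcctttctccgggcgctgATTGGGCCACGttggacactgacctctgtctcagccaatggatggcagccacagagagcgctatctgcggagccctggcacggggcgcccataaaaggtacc

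The capitals in Asns and Trib3, and the first capitals in Herpud1, are C/EBP-ATF composite sites, searched as TGATGNAA on both strands. This motif was present in 5 members (Asns, Chac1, Herpud1, Pycr1 and Trib3) and in 3.97% of the 32851 promoter windows in the table. The leftmost base of the site lay at -23 from the gene start in Asns, at -193 in Chac1, at -112 in Herpud1, at -103 in Pycr1 and at 15, just past the start, in Trib3. The capitals in Hspa5 are an ER stress response element, searched on both strands as CCAAT, then 9 bases of any kind, then CCACG. It was present in 7 members and in 0.119% of all windows. These are its 8 copies, each read along its own strand, with both fixed ends in place.
Hspa5: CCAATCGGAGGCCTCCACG
Pdia6: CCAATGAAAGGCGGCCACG
Dnajc3: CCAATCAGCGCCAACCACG
Canx: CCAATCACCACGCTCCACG
Calr: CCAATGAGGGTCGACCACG
Creld2: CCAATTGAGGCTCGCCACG
Hsp90b1, first copy: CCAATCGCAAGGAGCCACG
Hsp90b1, other copy: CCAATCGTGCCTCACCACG

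The last capitals in Herpud1 are an ER stress response element II (ATTGG, 1 base, CCACG), present in that member alone and in 0.0365% of all windows. The unfolded protein response element TGACGTGG, present in 0.676% of all windows, was found in no member. The motifs did not overlap each other in these 4 windows. A match describes these letters and was not tested as a binding site.

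Library totals ran from 26182192 to 45401151 estimated counts. The members together took 0.759% to 1.11% of the counts in the 12 libraries of 4 h and 0.500% to 0.676% in the 12 libraries of 12 h. All 13 granulosa cell markers searched were detected, with a summed level of 3615 to 9863 CPM (counts scaled to the size of each library) over the 24 libraries. Under hCG, Nts itself was lower in siNTS than in siNC cells under every label at both times. In the order A_1, A_2, B_2, B_3, it was at 16.1, 28.7, 22.9 and 180 CPM in siNC at 4 h. In siNTS it was at 1.99, 4.39, 4.16 and 42.9 CPM. At 12 h it was at 2.69, 1.56, 1.49 and 9.67 CPM in siNC and at 0.154, 0.121, 0.0764 and 2.73 CPM in siNTS. Deviations from the group means were mostly correlated between libraries of the same label, but the A_1 library of siNC without hCG at 12 h did not follow the other A_1 libraries. Across 10798 genes, its deviations from the group mean correlated at -0.647 with those of A_1 at 4 h without hCG and at -0.692 with those of A_1 at 12 h with hCG. Counts of calls for time and hCG are therefore also given without the A_1 libraries, as are the calls of single members that were lost without them and the called values that moved by over 1.5 times. The B_2 library of that same group followed its label only weakly. Its deviations correlated at 0.008 with those of B_2 at 4 h without hCG and at 0.189 with those of B_2 at 12 h with hCG. Calls of single members that were lost without B_2 are named below. The comparisons below are not independent of each other, because each group of libraries enters more than 1 of them.

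By the number of members called, culture time had a larger effect than hCG or the siRNA. In siNC cells without hCG, 20 members fell from 4 h to 12 h, 1 rose and 15 did not pass the test (edgeR's quasi-likelihood test, Benjamini-Hochberg adjusted p under 0.05 over 15405 genes). Of all genes tested, 16% fell and 14.8% rose. The median log2 fold change of the members was -0.754, against -0.007 for all genes. With hCG, 20 members fell, where 20.2% of all genes did, 2 rose, where 22.9% did, and 14 did not pass. The median of the members was -0.741 there, against 0.010 for all genes. Without A_1, 19 members fell and 1 rose in cells without hCG, and 20 fell and 2 rose in cells with hCG. In bulk RNA, fewer cells of a type and less RNA per cell cannot be told apart.

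**Figure D1:**
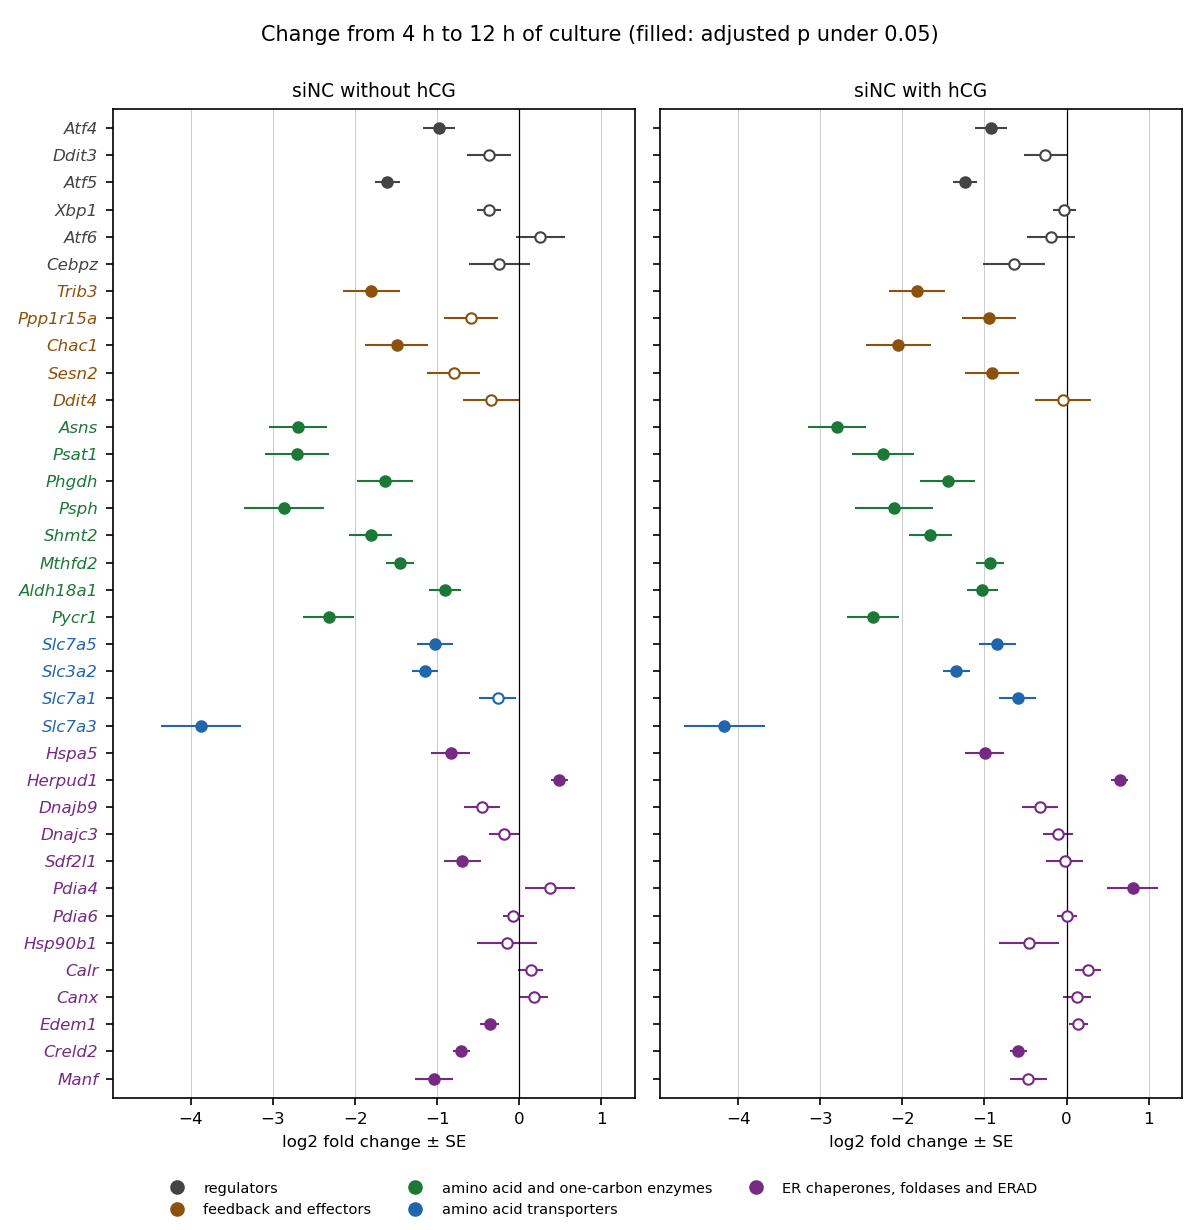
Log2 fold change from 4 h to 12 h ± SE for the 36 members, in siNC cells without hCG (left) and with hCG (right), 4 libraries a group. Colour gives the role of the gene and a filled point an adjusted p under 0.05. The 8 enzymes of amino acid and one-carbon metabolism lie to the left of 0 in both panels, with Slc7a3 furthest left at -3.88 and -4.17 and Herpud1 to the right.

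Among the regulators, Atf4, which encodes the central activator of the amino acid response, stood at 248, 290.0, 235 and 373 CPM at 4 h without hCG, in the order A_1, A_2, B_2, B_3 that is kept throughout. At 12 h it stood at 158, 137, 113 and 171 CPM. The groups did not overlap, and Atf4 fell (log2 fold change -0.98 ± 0.19 (SE), adjusted p = 5.64e-04). With hCG it went from 309, 346, 326 and 464 CPM at 4 h to 134, 221, 180.1 and 228 CPM at 12 h, again with no overlap (log2 fold change -0.92 ± 0.19 (SE), adjusted p = 5.54e-04).

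Atf5, whose product is a related factor that is also translated under stress, was at 239, 222, 223 and 276 CPM at 4 h and at 86.0, 61.3, 79.1 and 88.9 CPM at 12 h without hCG. Every 12 h library lay below every 4 h library, a 3.04-fold difference (log2 fold change -1.61 ± 0.15 (SE), adjusted p = 1.88e-07). With hCG the values were 319, 208, 254 and 290.3 CPM at 4 h against 118, 111, 110.3 and 116 CPM at 12 h. Again the groups were apart, and the fall was 2.36-fold (log2 fold change -1.24 ± 0.15 (SE), adjusted p = 1.20e-06).

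Ddit3 encodes CHOP, the factor tied to cell death under lasting ER stress. It did not pass at either treatment. Its values without hCG were 10.6, 15.6, 13.9 and 14.7 CPM at 4 h against 11.6, 10.4, 7.34 and 13.1 CPM at 12 h (log2 fold change -0.37 ± 0.27 (SE), adjusted p = 0.317), and with hCG 13.8, 16.6, 13.2 and 14.5 CPM and 8.31, 14.0, 10.2 and 16.1 CPM (log2 fold change -0.26 ± 0.27 (SE), adjusted p = 0.470). The groups overlapped, and the A_1 library was the exception to a lower value at 12 h without hCG. Xbp1, the IRE1 target, averaged 139 ± 17.8 CPM (SD, n = 4) at 4 h and 108 ± 19.4 CPM at 12 h without hCG, lower under each of the 4 labels but with an adjusted p of 0.0520. With the replicate label as a block that adjusted p was 0.00780. With hCG its means were 138 ± 16.9 CPM and 135 ± 11.8 CPM (adjusted p = 0.895). Atf6, the membrane-bound sensor and factor, did not pass in either comparison (0.26 and -0.18 on the log2 scale). Cebpz did not pass either (-0.24 and -0.64), though with the block its value with hCG had an adjusted p of 0.0327. Cebpz encodes a nucleolar protein of ribosome assembly and is not the gene of CHOP, which shares its alias C/EBP zeta, and its neighbour on the opposite strand, Cebpzos, was counted as a row of its own.

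The 8 enzymes all fell at both treatments. Asns, the enzyme that makes asparagine, was at 511, 227, 289 and 321 CPM at 4 h without hCG and at 42.6, 40.0, 64.2 and 61.6 CPM at 12 h. The highest value at 12 h was far below the lowest at 4 h, and the fall was 6.47-fold (log2 fold change -2.69 ± 0.35 (SE), adjusted p = 7.49e-06). With hCG it went from 495, 212, 318 and 334 CPM to 68.1, 40.0, 51.2 and 36.9 CPM. That fall was 6.92-fold (log2 fold change -2.79 ± 0.35 (SE), adjusted p = 1.74e-06).

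Serine synthesis from glycolysis runs through Phgdh, Psat1 and Psph. Psat1 was at 709, 226, 304 and 343 CPM at 4 h and at 48.8, 47.4, 79.4 and 66.0 CPM at 12 h without hCG, and at 535, 272, 387 and 419 CPM and 128, 70.1, 80.6 and 64.3 CPM with hCG. Its falls were 6.55-fold without hCG (log2 fold change -2.71 ± 0.39 (SE), adjusted p = 2.15e-05) and 4.71-fold with hCG (log2 fold change -2.24 ± 0.38 (SE), adjusted p = 6.17e-05), with no overlap between times. Psph, the last enzyme of the route, was at 363, 99.9, 132 and 92.0 CPM at 4 h without hCG, where A_1 stood well above the other labels, and at 19.0, 18.6, 33.9 and 23.0 CPM at 12 h. It fell without overlap (log2 fold change -2.86 ± 0.49 (SE), adjusted p = 1.42e-04), with a log2 fold change between -3.20 and -2.08 over the fits that each left out 1 label. With hCG it was at 201, 91.5, 147 and 90.8 CPM at 4 h against 48.4, 23.9, 30.2 and 21.5 CPM at 12 h, again apart (log2 fold change -2.10 ± 0.48 (SE), adjusted p = 0.00113). Phgdh, the first enzyme of the route, averaged 703 ± 289.7 CPM at 4 h and 226 ± 58.3 CPM at 12 h without hCG (SD, n = 4) and fell by 1.64 on the log2 scale (adjusted p = 9.41e-04), and with hCG its log2 fold change was -1.45 ± 0.34 (adjusted p = 0.00151).

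Shmt2 and Mthfd2 encode mitochondrial enzymes of folate metabolism that use serine as their one-carbon source. Shmt2 was at 416, 231, 295 and 243 CPM at 4 h and at 79.3, 70.5, 95.2 and 93.0 CPM at 12 h without hCG, and at 370.3, 187, 280.0 and 233 CPM and 114, 69.1, 83.9 and 72.9 CPM with hCG. It fell in both cases without overlap (log2 fold change -1.81 ± 0.26 (SE), adjusted p = 2.66e-05, and with hCG log2 fold change -1.66 ± 0.26 (SE), adjusted p = 2.78e-05). Mthfd2 was at 93.5, 75.4, 72.7 and 113 CPM at 4 h and at 32.3, 28.1, 32.8 and 36.3 CPM at 12 h without hCG (log2 fold change -1.45 ± 0.17 (SE), adjusted p = 2.93e-06). With hCG it went from 127, 81.9, 86.6 and 117 CPM to 54.4, 58.2, 52.5 and 51.5 CPM (log2 fold change -0.93 ± 0.17 (SE), adjusted p = 1.48e-04). The groups did not overlap in either case.

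Proline synthesis is represented by Aldh18a1 and Pycr1. Pycr1, the last enzyme of that route, was at 15.6, 9.83, 12.5 and 8.07 CPM at 4 h and at 2.61, 1.87, 2.34 and 2.35 CPM at 12 h without hCG, and at 13.3, 7.12, 9.49 and 6.23 CPM and 2.55, 1.60, 1.73 and 1.15 CPM with hCG. It fell 5.00-fold without hCG (log2 fold change -2.32 ± 0.32 (SE), adjusted p = 1.19e-05) and 5.13-fold with hCG (log2 fold change -2.36 ± 0.32 (SE), adjusted p = 3.98e-06). Aldh18a1, the first committed enzyme, averaged 138 ± 31.7 CPM and 73.6 ± 8.15 CPM (SD, n = 4) without hCG and showed the smallest fall of the 8 enzymes in that comparison (log2 fold change -0.91 ± 0.19 (SE), adjusted p = 9.78e-04). With hCG it changed by -1.03 ± 0.19 (adjusted p = 1.57e-04).

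The transporter Slc7a3, which carries cationic amino acids into the cell, showed the largest fall of the 36 members. It was at 288, 87.0, 126 and 80.7 CPM at 4 h and at 8.45, 7.16, 12.4 and 11.6 CPM at 12 h without hCG, and at 220.2, 99.5, 157 and 97.6 CPM and 12.9, 5.93, 7.94 and 5.22 CPM with hCG. The 12 h libraries were all below the 4 h libraries, with falls of 14.7-fold (log2 fold change -3.88 ± 0.48 (SE), adjusted p = 4.78e-06) and 18.0-fold (log2 fold change -4.17 ± 0.49 (SE), adjusted p = 7.10e-07). Its 4 h level differed between labels, highest in A_1. Slc3a2, the heavy chain that Slc7a5 and Slc7a11 need to reach the membrane, was at 259, 224, 223 and 325 CPM at 4 h and at 109.7, 109, 115 and 131 CPM at 12 h without hCG (log2 fold change -1.15 ± 0.16 (SE), adjusted p = 1.67e-05). With hCG it was at 672, 709, 679 and 891 CPM and 251, 298, 259.6 and 356 CPM (log2 fold change -1.34 ± 0.16 (SE), adjusted p = 9.06e-07), again apart. Slc7a5, the light chain of the leucine transporter LAT1, averaged 239 ± 48.6 CPM at 4 h and 117 ± 7.38 CPM at 12 h without hCG (SD, n = 4; log2 fold change -1.03 ± 0.22 (SE), adjusted p = 0.00144). With hCG its log2 fold change was -0.84 ± 0.22 (adjusted p = 0.00407), and without B_3 the adjusted p was 0.0549. Slc7a1, the other cationic amino acid transporter, did not pass without hCG (-0.26 on the log2 scale, adjusted p = 0.402). With hCG it fell by 0.59 (adjusted p = 0.0387), a call that was lost without A_1, B_2 or B_3 (adjusted p between 0.0586 and 0.180).

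**Figure D2:**
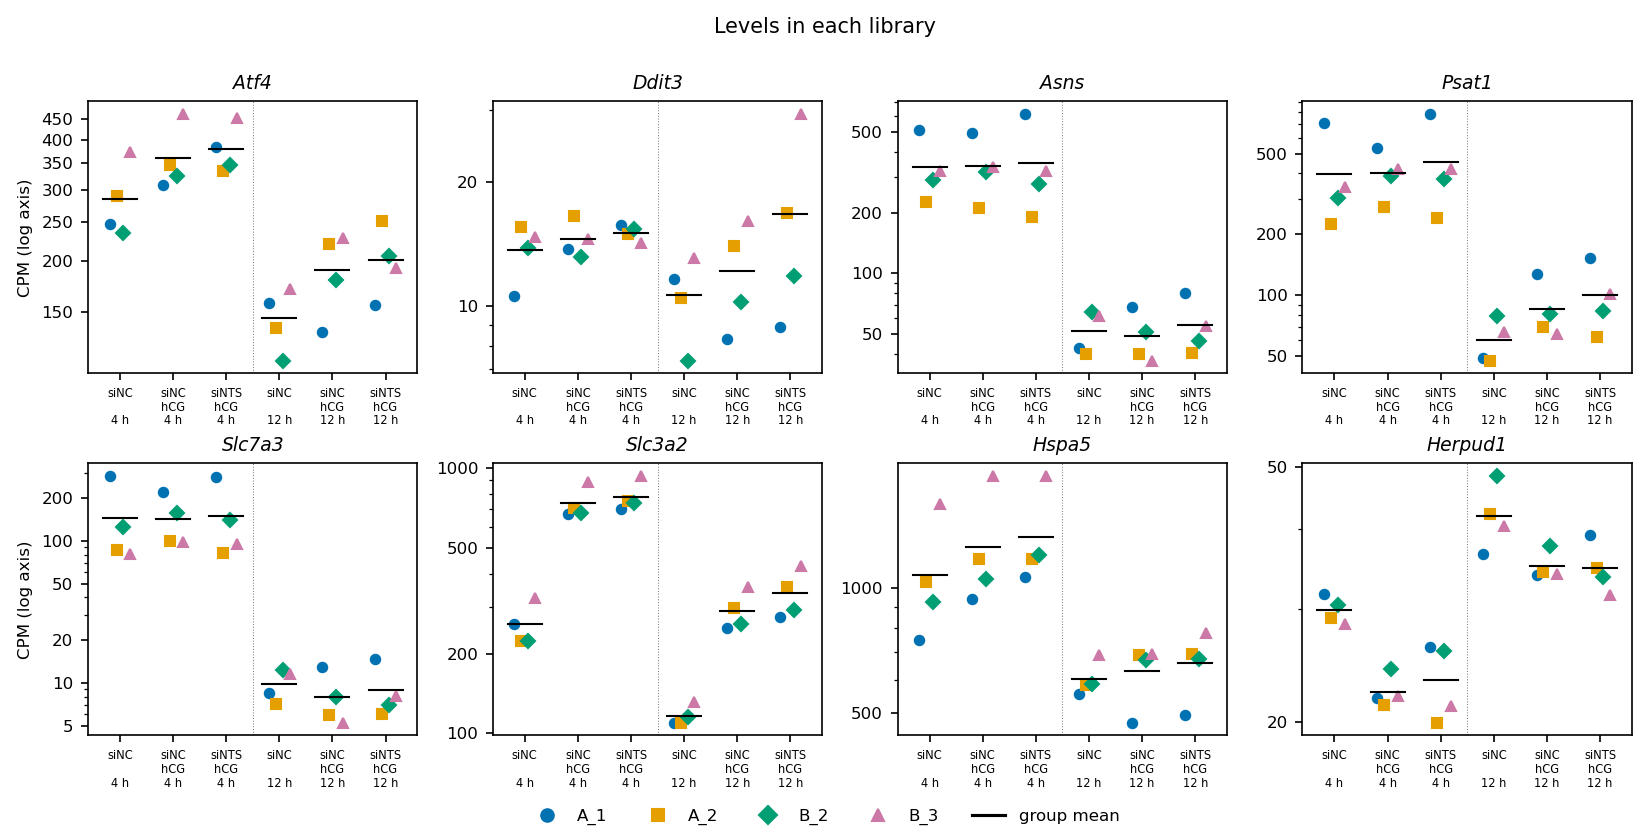
Level in CPM on a log axis of 8 members in each of the 24 libraries, by group, with the symbol giving the replicate label and the line the mean of the 4 libraries. Asns, Psat1 and Slc7a3 drop from 4 h to 12 h in every treatment, Slc3a2 is higher in the hCG groups at each time, Ddit3 overlaps between times, and Herpud1 is higher at 12 h.

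Feedback genes fell in part. Trib3 averaged 14.5 ± 4.30 CPM at 4 h and 4.16 ± 1.94 CPM at 12 h without hCG (SD, n = 4), and fell (log2 fold change -1.80 ± 0.35 (SE), adjusted p = 4.50e-04; with hCG log2 fold change -1.82 ± 0.35 (SE), adjusted p = 2.08e-04). Chac1, which breaks down glutathione, fell by 1.49 without hCG (adjusted p = 0.00541; 0.0506 without A_1) and by 2.05 with hCG (adjusted p = 2.39e-04). Ppp1r15a, the GADD34 subunit that takes eIF2α out of its phosphorylated state, passed with hCG (log2 fold change -0.94 ± 0.33 (SE), adjusted p = 0.0232) and not without it (adjusted p = 0.177, 0.0252 with the block). Sesn2, an inhibitor of mTORC1 under leucine shortage, passed with hCG (log2 fold change -0.91 ± 0.33 (SE), adjusted p = 0.0290) and not without it (adjusted p = 0.0674, 6.31e-06 with the block). In cells with hCG, Ppp1r15a did not pass without A_2 or B_2 (adjusted p of 0.0778 and 0.0766), nor did Sesn2 without A_1, A_2 or B_2 (between 0.0760 and 0.103). Ddit4, another inhibitor of mTORC1 signalling, passed in neither comparison (-0.34 and -0.045). None of these 5 genes showed a difference between the 2 treatments in its change with time that passed the test given below.

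The 13 ER genes did not move together. Without hCG, 5 fell, 1 rose and 7 did not pass, and with hCG 2 fell, 2 rose and 9 did not pass. Of all genes tested, 16% fell and 14.8% rose without hCG, and 20.2% fell and 22.9% rose with hCG. Hspa5, the chaperone BiP, was at 751, 1036, 923 and 1594 CPM at 4 h and at 555, 584, 586 and 688 CPM at 12 h without hCG. The highest 12 h library was below the lowest 4 h library (log2 fold change -0.83 ± 0.24 (SE), adjusted p = 0.00993), yet the call was lost without A_2 or B_2 (adjusted p of 0.0781 and 0.0546). With hCG it went from 942, 1173, 1053 and 1865 CPM to 473, 688, 669 and 694 CPM, with no overlap (log2 fold change -0.996 ± 0.24 (SE), adjusted p = 0.00170).

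Herpud1, which anchors the ERAD ubiquitin ligase complex, was the member that rose in both comparisons. It was at 31.6, 29.1, 30.4 and 28.5 CPM at 4 h and at 36.5, 42.2, 48.5 and 40.5 CPM at 12 h without hCG (log2 fold change 0.49 ± 0.10 (SE), adjusted p = 0.00115). With hCG it was at 21.8, 21.2, 24.2 and 21.9 CPM and 33.9, 34.3, 37.6 and 34.1 CPM (log2 fold change 0.65 ± 0.10 (SE), adjusted p = 3.18e-05). Every 12 h library was above every 4 h library of its treatment. Pdia4, a disulfide isomerase, rose with hCG (log2 fold change 0.81 ± 0.31 (SE), adjusted p = 0.0392), but A_1 was low at each time and the adjusted p was 0.112, 0.244 and 0.0914 without A_2, B_2 and B_3. Without hCG its adjusted p was 0.373, or 0.0115 with the block.

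Creld2, an ER protein of the disulfide isomerase kind, was at 45.5, 44.3, 36.6 and 46.8 CPM at 4 h and at 26.1, 23.9, 28.98 and 27.2 CPM at 12 h without hCG (log2 fold change -0.71 ± 0.11 (SE), adjusted p = 3.51e-05). With hCG it went from 39.3, 41.0, 42.6 and 45.3 CPM to 27.3, 25.2, 28.1 and 31.4 CPM (log2 fold change -0.59 ± 0.11 (SE), adjusted p = 1.13e-04). Its groups were apart at both treatments. Manf, a secreted partner of BiP, fell without hCG (log2 fold change -1.03 ± 0.23 (SE), adjusted p = 0.00175), and without A_1 the log2 fold change was -0.60 (adjusted p = 0.0119). With hCG Manf had an adjusted p of 0.110, 0.0395 with the block and 0.0180 without A_1. Edem1, which directs misfolded glycoproteins to degradation, fell without hCG by 0.36 (adjusted p = 0.0225), and leaving out A_2, B_2 or B_3 ended that call (adjusted p between 0.0704 and 0.0915). Sdf2l1, a cofactor of BiP, also fell without hCG, by 0.69 (adjusted p = 0.0225), and lost the call without A_1, A_2 or B_3 (adjusted p between 0.0685 and 0.168), with a log2 fold change of -0.39 without A_1. Calr, Canx and Hsp90b1, which are lectin chaperones and the ER HSP90, and Pdia6, Dnajc3 and Dnajb9, a further isomerase and a pair of BiP cochaperones, passed in neither comparison. Their log2 fold changes lay between -0.45 and 0.18 without hCG and between -0.46 and 0.26 with hCG. With the block, Calr with hCG had an adjusted p of 0.04996.

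With the label as a block, 23 members fell and 2 rose from 4 h to 12 h without hCG, where 21.4% and 21.9% of all genes did. With hCG, the block gave 22 members that fell and 3 that rose, against 25.6% and 27.7% of all genes.

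Of the promoters with a composite site, the genes Asns, Chac1, Pycr1 and Trib3 fell with time at both treatments and Herpud1 rose. Of the 7 genes with an ER stress response element, Hspa5 and Creld2 fell at both treatments and the other 5 passed in neither. The call of Hspa5 without hCG was lost without A_2 or B_2, and Calr with hCG passed with the block. Of all genes tested, 16% fell and 14.8% rose without hCG, and 20.2% fell and 22.9% rose with hCG. The counts by motif are too small to compare with these shares or with the members that lack the motifs.

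Related genes that are not members were described by 4 further lists. Of all genes tested, 16% fell and 14.8% rose with time without hCG, and 20.2% fell and 22.9% rose with hCG. Of 13 cytosolic tRNA synthetases, which charge tRNAs with amino acids, 11 fell with time without hCG and 11 with hCG, and none rose. Gars, the glycine enzyme, went from 390.3 to 164 CPM (mean of 4) without hCG (log2 fold change -1.25 ± 0.18 (SE), adjusted p = 2.16e-05), beside Nars at -0.87, Wars at -0.49 and Cars at -0.86 on the log2 scale. With hCG, Cars went from 107 to 47.6 CPM (log2 fold change -1.17 ± 0.17 (SE), adjusted p = 9.80e-06), Gars changed by -1.21, Tars by -0.92 and Nars by -0.93. Of 22 other ATF4 targets, 18 fell without hCG, where the list median was -1.095, and 15 fell with hCG, where it was -1.403, and none rose. Aldh1l2, a mitochondrial folate enzyme, had the smallest adjusted p of its list in both (log2 fold change -2.15 ± 0.20 (SE), adjusted p = 1.38e-07, and with hCG log2 fold change -2.72 ± 0.20 (SE), adjusted p = 1.55e-09). The next by adjusted p without hCG were the neutral amino acid transporter Slc1a5 (-1.38), the cysteine-making enzyme Cth (-3.07) and the folate enzyme Mthfd1l (-1.38). With hCG they were the alanine transaminase Gpt2 (-1.56), the cystine transporter Slc7a11 (-3.04) and Slc1a5 (-1.29).

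Sensors and the eIF2 machinery mostly did not pass. Of 14 genes, 3 fell without hCG (Eif2b3 by 1.08, Eif2b4 by 0.50 and Eif2s1 by 0.82 on the log2 scale), and with hCG 3 fell and 1 rose. Those were Ppp1r15b at -0.48, Eif2ak1, the haem-regulated kinase, at -0.27, Eif2b3 at -0.46 and the protease gene Mbtps2, whose product cleaves ATF6, at 0.31. Of 26 further genes of ER folding, transport and ERAD, 4 rose and 4 fell without hCG, and 5 rose and 3 fell with hCG. The shares of all genes tested were 14.8% risen and 16% fallen without hCG, and 22.9% and 20.2% with hCG. Ero1b (0.78), Derl3 (1.17) and Os9 (0.96) rose without hCG and Erp44 fell (-0.55). With hCG, Derl3 (1.41) and Ero1b (0.36) rose and Erp44 (-0.40) and Sec24d (-0.52) fell.

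Some markers of granulosa and other cells passed the test for time as well. Of all genes tested, 14.8% rose and 16% fell without hCG, and 22.9% rose and 20.2% fell with hCG. Of 10 macrophage and leukocyte markers tested, 6 fell without hCG, and the summed level of the 11 searched was 14.9 to 32.3 CPM at 4 h and 6.19 to 10.7 CPM at 12 h. Of 13 granulosa markers, 3 rose and 4 fell, with a summed level of 7925 to 9863 CPM at 4 h and 6029 to 8512 CPM at 12 h. None of the 5 erythrocyte markers passed (5 fell with the label as a block), and their sum ran from 336 to 4283 CPM at 4 h and from 112 to 1496 CPM at 12 h. Fibroblast and smooth muscle markers summed to 30.2 to 48.0 CPM at 4 h and 46.5 to 100.1 CPM at 12 h, with 2 of 8 risen and 1 fallen. With hCG, 3 of the 10 leukocyte markers fell, and the sum over the 11 was 21.7 to 28.6 CPM at 4 h and 12.9 to 18.1 CPM at 12 h. Of the theca, endothelium and oocyte lists, 1 of 5 endothelial markers passed without hCG, a rise, and 0 of 4 theca and 0 of 6 oocyte markers did. Of the other lists with hCG, 6 of the 13 granulosa markers rose from 4 h to 12 h and 4 fell, 1 of 8 fibroblast markers rose and 3 fell, 2 of 5 endothelial markers rose and 1 of 4 theca markers fell. None of the 5 erythrocyte markers passed with hCG (5 fell with the block), nor did any of the 6 oocyte markers. With hCG the granulosa sum was 5409 to 6466 CPM at 4 h and 3615 to 4751 CPM at 12 h, the fibroblast sum 23.5 to 41.7 CPM and 27.5 to 55.3 CPM, and the erythrocyte sum 302 to 3050.0 CPM and 101 to 907 CPM. No marker of these lists was at 0 in all libraries. Their part in the change of the members was not tested.

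Fewer members were called for hCG than for time. At 4 h, 1 member rose with hCG, where 7.95% of all genes did, and 1 fell, where 11.1% did. The median log2 fold change of the members was 0.006, against -0.069 for all genes. At 12 h, 4 members rose, where 8.18% of all genes did, and 0 fell, where 8.36% did, with a median of 0.155 against -0.008. At 12 h 7 members had an unadjusted p under 0.05, and DESeq2 and limma-voom also gave 4 that rose and 0 that fell, as did the fit without A_1. At 4 h, 2 members rose and 1 fell without A_1, and Dnajb9 was the added one (adjusted p = 0.0199). The shares called among the members were near or below the background of all genes.

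**Figure D3:**
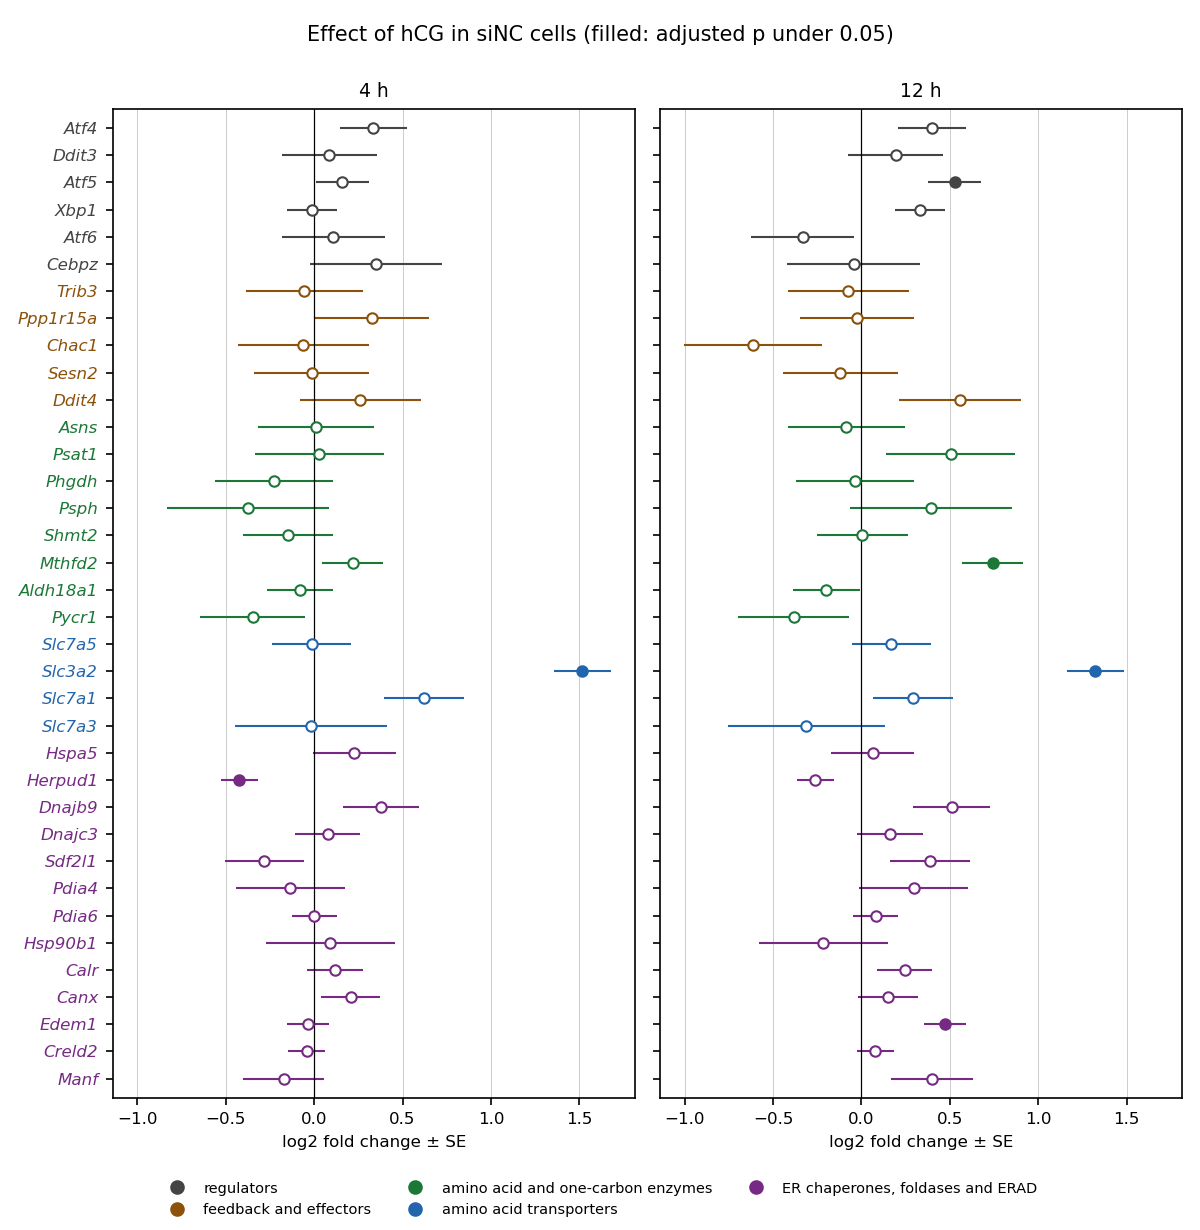
Log2 fold change of hCG against no hCG ± SE in siNC cells for the 36 members, at 4 h (left) and 12 h (right), 4 libraries a group, with filled points for an adjusted p under 0.05. Slc3a2 lies apart from the other members at 1.52 and 1.32, and the other filled points are Herpud1 at 4 h and Mthfd2, Edem1 and Atf5 at 12 h.

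Slc3a2 rose with hCG at both times. At 4 h it was at 259, 224, 223 and 325 CPM without hCG and at 672, 709, 679 and 891 CPM with it, a 2.86-fold rise (log2 fold change 1.52 ± 0.16 (SE), adjusted p = 9.20e-07). At 12 h it was at 109.7, 109, 115 and 131 CPM without hCG and at 251, 298, 259.6 and 356 CPM with it, a 2.499-fold rise (log2 fold change 1.32 ± 0.16 (SE), adjusted p = 3.64e-06). All 4 labels rose and the groups were apart at each time. Its light chain partner in LAT1, Slc7a5, had log2 fold changes of -0.014 at 4 h and 0.17 at 12 h and did not pass (adjusted p = 0.974 and 0.651). Slc7a11, a related gene whose product pairs with that of Slc3a2 to import cystine, rose from 111 to 838 CPM at 4 h (log2 fold change 2.92 ± 0.37 (SE), adjusted p = 8.98e-06) and from 25.6 to 102 CPM at 12 h (log2 fold change 2.00 ± 0.36 (SE), adjusted p = 3.96e-04). Slc7a1 was higher with hCG under each label at 4 h (log2 fold change 0.62 ± 0.23 (SE), adjusted p = 0.0584), with an adjusted p of 0.00446 with the block. The block gave 2 members that rose at 4 h, Slc3a2 and Slc7a1, and 1 that fell, where 12.8% and 17.3% of all genes did.

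Herpud1 fell with hCG at 4 h, from 31.6, 29.1, 30.4 and 28.5 CPM to 21.8, 21.2, 24.2 and 21.9 CPM (log2 fold change -0.42 ± 0.10 (SE), adjusted p = 0.00593). The groups were apart, and the adjusted p was 0.0991 without A_2, so that 1 member was called at 4 h without that label. At 12 h Herpud1 was at 36.5, 42.2, 48.5 and 40.5 CPM without hCG and at 33.9, 34.3, 37.6 and 34.1 CPM with it, lower under each label (log2 fold change -0.26 ± 0.10 (SE), adjusted p = 0.0935; 0.0355 with the block).

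At 12 h, Mthfd2 was at 32.3, 28.1, 32.8 and 36.3 CPM without hCG and at 54.4, 58.2, 52.5 and 51.5 CPM with it, with no overlap (log2 fold change 0.74 ± 0.17 (SE), adjusted p = 0.00371). The other 7 enzymes did not pass at either time. Edem1 was at 103, 117, 127 and 118 CPM without hCG and at 189.7, 151, 163 and 142 CPM with it, also apart (log2 fold change 0.47 ± 0.12 (SE), adjusted p = 0.00690; adjusted p = 0.0542 without B_2). Atf5 was at 86.0, 61.3, 79.1 and 88.9 CPM and 118, 111, 110.3 and 116 CPM, apart as well (log2 fold change 0.53 ± 0.15 (SE), adjusted p = 0.0169; adjusted p = 0.0716 without A_2 and 0.112 without B_2). Without B_2, Slc3a2 and Mthfd2 were the 2 members called at 12 h. With the block, 5 members rose at 12 h and 1 fell, where 13.1% and 13.9% of all genes did, and the added ones were Xbp1 (0.33 on the log2 scale, adjusted p = 0.124, 0.0227 with the block) and Herpud1.

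Atf4 did not pass at either time. Its values with hCG, given above, were higher than those without it under all 4 labels at 4 h (log2 fold change 0.34 ± 0.19 (SE), adjusted p = 0.251) and under 3 of 4 at 12 h (log2 fold change 0.40 ± 0.19 (SE), adjusted p = 0.178). The groups overlapped at each time. Ddit3 (0.085 ± 0.27 (adjusted p = 0.863) at 4 h and 0.19 ± 0.27 (adjusted p = 0.666) at 12 h), Asns (0.011 ± 0.33 (adjusted p = 0.985) and -0.087 ± 0.33 (adjusted p = 0.887)) and Hspa5 (0.23 ± 0.23 (adjusted p = 0.562) and 0.065 ± 0.23 (adjusted p = 0.882)) did not pass, and their groups overlapped. The members that did not pass lay between -0.37 (Psph) and 0.62 (Slc7a1) at 4 h and between -0.61 (Chac1) and 0.56 (Ddit4) at 12 h. Without A_1, Psph was at 0.043 at 4 h, and without B_3 Chac1 was at -0.32 at 12 h. In the authors' deposited table, 2 of the 36 members rose and 1 fell at 4 h, and 4 rose and 0 fell at 12 h, at an adjusted p under 0.05. Of the 14362 genes in that table, 1670 rose and 2291 fell at 4 h, and 1799 rose and 1722 fell at 12 h.

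Of the related lists, the ATF4 targets held 3 genes that rose with hCG at 4 h and 1 that fell, and 4 that rose and 3 that fell at 12 h. Cebpb, a partner of ATF4 and a granulosa cell regulator, rose by 0.88 at 4 h and by 1.47 at 12 h on the log2 scale, with an adjusted p of 0.00312 and 1.78e-05. Cebpg rose at both times (0.23 and 0.32), Pck2 fell at 4 h (-0.63) and Aldh1l2 at 12 h (-0.80). Among the ER genes, Derl3, a channel component of ERAD, fell from 5.82 to 1.92 CPM at 4 h (log2 fold change -1.60 ± 0.24 (SE), adjusted p = 5.60e-05) and from 13.1 to 5.12 CPM at 12 h (log2 fold change -1.35 ± 0.23 (SE), adjusted p = 1.94e-04). Creb3l2 fell at both times (-0.47 and -0.58), Sec23b of the vesicle coat rose at both (0.37 and 0.43), Sec24d rose at 4 h (0.52) and Ero1b fell at 12 h (-0.53). In that list of 26 genes, 2 rose and 2 fell at 4 h and 2 rose and 4 fell at 12 h. The shares of all genes tested were 7.95% risen and 11.1% fallen at 4 h, and 8.18% and 8.36% at 12 h. Among the sensors, Eif2ak1 (0.44), Ppp1r15b (0.45) and Ern1, the gene of IRE1 (0.68), rose at 4 h and Eif2b4 (0.46) at 12 h. Of the tRNA synthetases, Aars rose at 4 h (0.41) and none passed at 12 h, where 1 rose with the label as a block.

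The summed level of the granulosa cell markers was lower with hCG, while single markers went both ways. Their log2 fold changes ran from -1.338 to 1.004 at 4 h (median -0.687) and from -1.634 to 0.845 at 12 h (median -0.147). Of all genes tested, 7.95% rose and 11.1% fell at 4 h, and 8.18% rose and 8.36% fell at 12 h. At 4 h, 7 of 13 fell, with a summed level of 7925 to 9863 CPM without hCG and 5409 to 6466 CPM with it, and at 12 h 4 fell and 1 rose, with 6029 to 8512 CPM without hCG and 3615 to 4751 CPM with it. Leukocyte markers summed to 21.7 to 28.6 CPM with hCG at 4 h and to 12.9 to 18.1 CPM at 12 h, with 1 of 10 risen at each time. At each time 1 of 5 endothelial markers rose, and at 12 h 2 of 4 theca markers and 2 of 8 fibroblast markers fell. The theca sum at 12 h was 96.4 to 132 CPM without hCG and 62.2 to 82.9 CPM with it, and the fibroblast sum 46.5 to 100.1 CPM and 27.5 to 55.3 CPM. Their part in the change of Slc3a2 and the other members was not tested.

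Whether the effect of hCG differed between 4 h and 12 h, which is the same as whether the change with time differed between treatments, was tested in the same fit. No member passed (edgeR), where 2.35% of all genes differed upward and 1.45% downward. The members with an unadjusted p under 0.05 numbered 3, and DESeq2 and limma-voom called 0. Edem1 came nearest, with a difference of 0.51 ± 0.17 (adjusted p = 0.0931) on the log2 scale, or an adjusted p of 0.0165 with the block. Without A_1 its difference was 0.37 (adjusted p = 0.171). It was the 1 member that differed upward under the block, where 8.36% of all genes did, and none differed downward, where 5.75% did. Edem1 fell with time without hCG in each of the 4 labels and was higher at 12 h with hCG in each of the 4, from 167, 132, 148 and 137 CPM to 189.7, 151, 163 and 142 CPM. The difference was 0.062 ± 0.27 (adjusted p = 0.906) for Atf4, 0.11 ± 0.38 (adjusted p = 0.880) for Ddit3, -0.10 ± 0.47 (adjusted p = 0.913) for Asns and -0.16 ± 0.33 (adjusted p = 0.791) for Hspa5. For Mthfd2 it was 0.53 ± 0.24 (adjusted p = 0.234) and for Slc3a2 -0.20 ± 0.22 (adjusted p = 0.623). A p that misses the threshold does not show that the effects were equal at both times.

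No member passed the test of the Nts siRNA. At 4 h with hCG, 0 members rose, where 0% of all genes did, and 0 fell, where 0.00649% did. At 12 h 0 rose, where 0.0454% of all genes did, and 0 fell, where 0.117% did. No member had an unadjusted p under 0.05 at either time, and DESeq2 and limma-voom also called 0. The log2 fold changes of the 36 members lay between -0.10 and 0.25 at 4 h and between -0.13 and 0.60 at 12 h. Without A_1 they lay between -0.24 and 0.15 at 4 h. The 0.60 was the value of Ddit4, and without B_3 the 36 lay between -0.16 and 0.21 at 12 h. The authors' deposited table likewise held 0 members with an adjusted p under 0.05 at each time. Of its 14362 genes, 17 rose and 43 fell at 4 h, and 122 rose and 209 fell at 12 h. The background shows that few genes of any kind were called.

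Atf4 was at 309, 346, 326 and 464 CPM in siNC and 385, 334, 347 and 454 CPM in siNTS at 4 h (log2 fold change 0.073 ± 0.19 (SE), adjusted p = 1.00). At 12 h it was at 134, 221, 180.1 and 228 and 156, 251, 206 and 192 CPM (log2 fold change 0.079 ± 0.19 (SE), adjusted p = 1.00). Asns was at 616, 190.1, 275 and 322 CPM in siNTS at 4 h (log2 fold change 0.047 ± 0.33 (SE), adjusted p = 1.00) and at 80.5, 40.3, 46.2 and 55.0 CPM at 12 h (log2 fold change 0.18 ± 0.33 (SE), adjusted p = 1.00). All of these groups overlapped. Hspa5 was at 1066, 1177, 1204 and 1862 CPM in siNTS at 4 h (log2 fold change 0.077 ± 0.23 (SE), adjusted p = 1.00) and at 495, 694, 673 and 780.3 CPM at 12 h, higher than in siNC under 4 of 4 labels but with overlapping groups (log2 fold change 0.067 ± 0.23 (SE), adjusted p = 1.00). Xbp1 averaged 145 ± 26.03 CPM in siNTS at 4 h and 136 ± 15.0 CPM at 12 h (SD, n = 4).

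Ddit3 was at 15.7, 14.9, 15.4 and 14.2 CPM in siNTS at 4 h (log2 fold change 0.053 ± 0.27 (SE), adjusted p = 1.00) and at 8.90, 16.9, 11.8 and 29.4 CPM at 12 h (log2 fold change 0.46 ± 0.27 (SE), adjusted p = 1.00). The 12 h value of B_3 was well above the rest. The same library held the highest Ddit4 of that group, 109.5, 85.3, 89.9 and 388 CPM against 119, 99.4, 90.6 and 137 CPM in siNC (log2 fold change 0.60 ± 0.34 (SE), adjusted p = 1.00), and the highest Trib3, 5.82, 3.64, 3.77 and 9.33 CPM against 4.78, 3.93, 3.12 and 3.99 CPM (log2 fold change 0.51 ± 0.34 (SE), adjusted p = 1.00). Ddit4 was higher in siNTS than in siNC under B_3 alone of the 4 labels. Without B_3 the log2 fold changes at 12 h were -0.12 for Ddit4, 0.16 for Trib3 and 0.21 for Ddit3. No member passed the test of whether the siRNA effect differed between the times (edgeR, 0 called, 0 with an unadjusted p under 0.05, 0 by DESeq2 and by limma-voom), where 0% of all genes differed upward and 0% downward. That difference was 0.006 ± 0.27 (adjusted p = 1.00) for Atf4, 0.41 ± 0.38 (adjusted p = 1.00) for Ddit3, 0.13 ± 0.47 (adjusted p = 1.00) for Asns and -0.010 ± 0.33 (adjusted p = 1.00) for Hspa5. None of the genes of the 4 related lists passed for the siRNA at either time. With the label as a block, 1 of the 26 genes of ER folding, transport and ERAD fell at 12 h, where 63 of 15405 genes did.

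**Figure D4:**
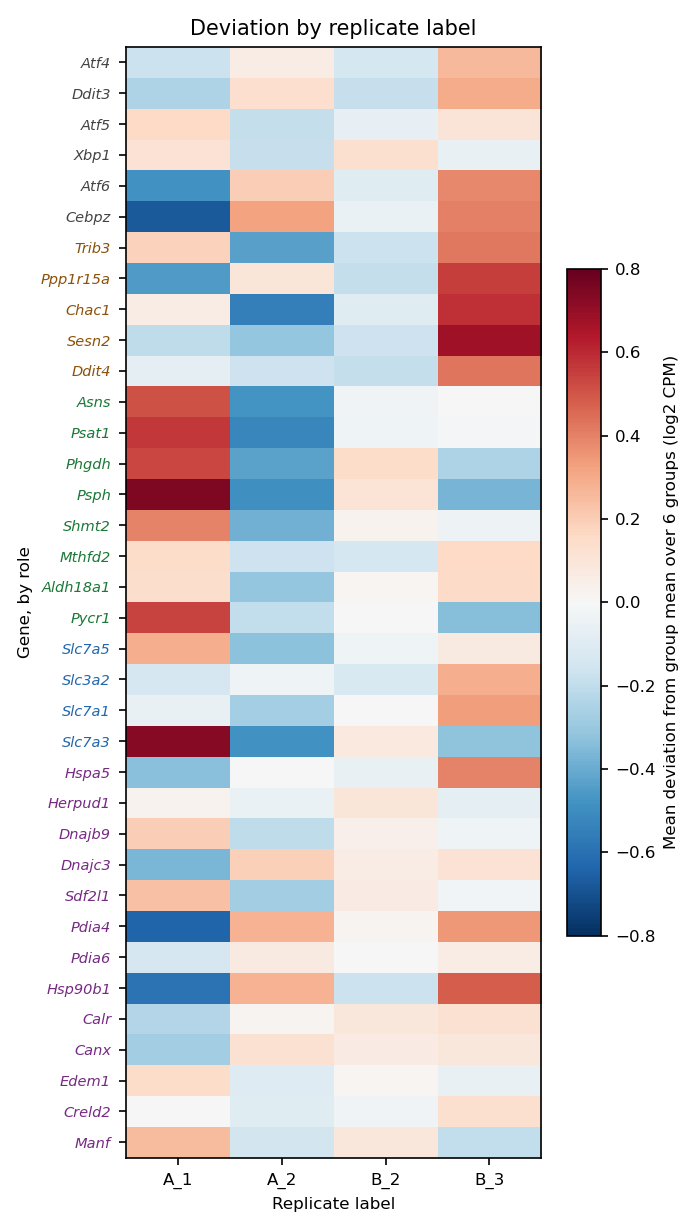
Mean deviation of each replicate label from the group mean over the 6 groups, in log2 CPM, for the 36 members in rows ordered by role. Red cells are above and blue cells below the group mean: A_1 is red for the 8 enzymes and Slc7a3 and blue for Pdia4, Hsp90b1 and Cebpz, A_2 is blue for the enzymes, and B_3 is red for Sesn2, Chac1 and Ppp1r15a.

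Within groups, the members varied by label, and not all in the same way. A_1 was above the group mean for all 8 enzymes in 5 or 6 of the 6 groups, by 0.75 on the log2 scale for Psph, 0.57 for Psat1 and 0.51 for Asns, and for Slc7a3 by 0.73. A_2 was below the group mean for 7 of the 8 enzymes in all 6 groups, by -0.48 for Asns and -0.52 for Psat1. The A_1 library at 12 h without hCG was the exception among the A_1 libraries, with Asns at 42.6 CPM against a group mean of 52.1 CPM. The 13 ER genes were divided. A_1 was below the group mean in all 6 groups for Pdia4 (-0.64), Hspa5 (-0.34), Dnajc3, Calr and Canx, and above it in 5 of 6 groups for Manf (0.25), Sdf2l1 (0.24), Dnajb9 (0.20) and Edem1 (0.15). B_3 was above the group mean in all 6 groups for Sesn2 (0.68), Chac1 (0.58), Ppp1r15a (0.55), Ddit4, Trib3, Hspa5 (0.40) and Hsp90b1 (0.48). These deviations have the same order of size as the hCG effects of most members and are smaller than the falls of Asns, Psat1 and Slc7a3 with time.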

How the data were processed

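RNA was measured in 24 libraries of cultured mouse granulosa cells, in 6 groups of 4. The deposited table holds estimated counts per gene, made by the authors with Salmon 1.4.0 and R 4.1.0, with GRCm39 named as build, per the submitters' processing notes. The library kit was stranded, per the labels' protocols. The authors' deposited comparison table gives log2 fold changes and adjusted p-values and was used only to count members and all genes called.

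Estimated counts were rounded to whole numbers and fitted with edgeR 4.0.16 (R 4.3.3): TMM scaling, a filter that kept 15405 of 39253 genes (99.97% of counts; minimum count 10), 1 quasi-likelihood fit of all 24 libraries without a block, 8 contrasts, Benjamini-Hochberg adjustment over all genes tested and a threshold of 0.05. The SE was taken from the log2 fold change and its F statistic. Levels are CPM after TMM scaling. The procedure was tested on simulated counts drawn without a correlation between libraries of the same label. That test does not cover the correlation by label given below. DESeq2 1.42.0 and limma-voom (limma 3.58.1) were among the alternatives, with other size factors, no filter, only the libraries of a contrast, the label or the culture date as a term, and leaving out each label.

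The titles give equal labels a shared culture date, so the labels pair the libraries. Deviations from the group means correlated between same-labelled libraries over 10798 genes at a median of 0.542 over 24 pairs, above 0.1 in 21 (lowest -0.692, highest 0.957). For members the blocked value is printed where it changes a call. For the related genes and the cell markers it is printed in part. No 2 libraries of the same group agreed within sampling noise.

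The members and the related lists were chosen with earlier results of these data known. By rule, full statistics are given for up to 10 called members per contrast with the smallest adjusted p, values in every contrast for Atf4, Ddit3, Asns and Hspa5 (group level for Xbp1), and up to 4 called genes from each related list. Chac1, Ppp1r15a, Sesn2 and other members are named outside that rule, after their values were seen. Promoters come from RefSeq GRCm38.p6, whose coordinates are not those of the authors' build. A planned description of protein ends was not made.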

Additional observations from a re-analysis of the deposited data

Results flagged for a closer look

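Of 216 combinations of member and group, 11 held a library far from the other 3 (gap to the nearest of the others over the range of the group above Dixon's 95% critical value), where chance alone gives about 1 in 20, or 10.8. The values are CPM. The library B_3 was the highest for Sesn2 at 12 h in siNC without hCG (40.2) and with hCG (37.2), for Ddit4 in siNTS with hCG at 12 h (388) and for Slc3a2 in siNC with hCG at 4 h (891). A_1 without hCG at 4 h was the highest for Psph (363) and Manf (277) and the lowest for Canx (402). A_1 was also the lowest for Canx in siNTS with hCG at 4 h (580) and for Hspa5 in siNC with hCG at 12 h (473). B_2 was the highest at 12 h for Phgdh without hCG (312) and for Herpud1 with hCG (37.6).

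In 2 cases every label moved one way in one comparison and the opposite way in the other. Edem1 was lower at 12 h than at 4 h in all 4 labels without hCG and higher in all 4 with hCG, and the 2 mean changes were 48.4 CPM apart (edgeR test of the difference on the log2 scale 0.51, adjusted p = 0.0931). Aldh18a1 was lower in siNTS than in siNC in all 4 labels at 4 h and higher in all 4 at 12 h, and the mean changes were 10.6 CPM apart (log2 difference 0.18, adjusted p = 1.00). Neither difference passed the test.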

How the results depend on the processing

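The counts of members called for time (18 to 25 in each comparison) and for the siRNA (0) stayed within 1.5 times under every alternative. The count for hCG at 4 h was 2 and ran from 1 to 3 over the fits that each left out 1 label, lowest without A_2. For hCG at 12 h it was 4 and ran from 2 to 4, lowest without B_2. With the label or the culture date as a block, 1 member passed for the difference between the hCG effects, where 0 did without it. Over all 36 members and 8 comparisons, 49 values were called. Leaving out 1 label at a time ended 25 calls (4 without A_1, 8 without A_2, 8 without B_2 and 5 without B_3) and added 7. No called value changed sign in these fits, while values that were not called did so 125 times. Psph in the hCG difference went from 0.77 to -0.046 and Psat1 from 0.48 to -0.18 without A_1, and Ddit4 under siNTS at 12 h from 0.60 to -0.12 without B_3. For Asns under siNTS at 4 h the log2 fold change was -0.002 with the label block, -0.005 with the date and -0.023 with limma-voom, and for the siNTS difference of Atf4 it was -0.003 with no filter. Leaving out 1 label gave ranges of -0.006 to 0.066 (Asns, hCG 4 h), -0.378 to 0.123 (Asns, hCG 12 h), -0.004 to 0.127 (Ddit3, siNTS 4 h) and -0.124 to 0.112 (Asns, siNTS 4 h). For the hCG difference they were -0.090 to 0.214 (Atf4), -0.024 to 0.355 (Ddit3) and -0.444 to 0.101 (Asns). For the siNTS difference they were -0.072 to 0.082 (Atf4), -0.011 to 0.277 (Asns) and -0.092 to 0.039 (Hspa5). The cause was not tested. No scaling moved the median of all genes by over 0.1. Precision rests on 4 libraries a group, since all members passed the filter at totals of at least 26182192 counts.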
